A study of Mus musculus with 14 samples.

Results

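Members of the p53 and cell death pathways were followed in cloned and fertilised mouse blastocysts. The 10 genes, chosen by symbol, were Trp53, Cdkn1a, Mdm2, Ccng1, Trp53inp1, Bax, Bbc3, Bcl2l1, Mcl1 and Bcl2l11, and every non-control probe that the array files assign to one of them was taken, which gave 19 of the 41174 gene probes. The arrays held RNA of E4.0 blastocysts in 4 groups. Fusion clones (n = 4, female) and injection clones (n = 4, female) were made from cumulus cells, the somatic cells around the oocyte, by cell fusion or by nuclear injection of the donor nucleus into an enucleated oocyte. IVF control embryos were male (n = 3) or female (n = 3), and the series describes its controls as matched to the clones in sex and genotype. By the study's methods, donor cells came from heterozygous Xist knockout mice on a BDF1 background, recipient oocytes and IVF embryos were BDF1, and reconstructed oocytes were activated with strontium and held in cytochalasin B. All embryos were cultured in KSOM. The labels do not say whether the donors of these blastocyst clones were Xist knockouts. Nor do they say whether a blastocyst sample was 1 embryo or several, so p-values measure the spread between these samples. The question was whether clones differed from IVF embryos in p53 targets or in genes that set the threshold for cell death, and, as the study asked of the whole transcriptome, whether the transfer method made a difference.

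p53, the product of Trp53, is a transcription factor that is kept low by the ubiquitin ligase MDM2 and is stabilised mainly at the protein level when DNA is damaged or the cell is stressed. It then raises transcription of its targets, among them the cell cycle inhibitor Cdkn1a (p21), the feedback gene Mdm2, Ccng1 and Trp53inp1, and the death genes Bax and Bbc3 (PUMA). In mitochondrial apoptosis BAX permeabilises the outer membrane, BCL-XL (Bcl2l1) and MCL1 hold it back, and BH3-only proteins such as PUMA and BIM (Bcl2l11) bind the guards and release BAX. In preimplantation embryos some apoptosis, chiefly in the inner cell mass, is part of normal blastocyst development.

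Values are log2 processed signals after quantile normalization, with a floor of 4.0, and a level is not set against that of another probe. Each group lay on a slide of its own, and the clones were read by another scanner and software version than the IVF embryos, so that clone and IVF status, slide, scanner and software cannot be told apart. Between 57.4% and 65.2% of gene spots per array were well above background. The blastocyst lineages were present in every group: all 7 epiblast markers on the array and all 9 trophectoderm markers were above background on every array. The mean level over the 9 trophectoderm markers was 13.78 to 14.82 in fusion clones, 13.85 to 14.28 in injection clones and 14.88 to 15.51 in IVF embryos. Over 9 primitive endoderm markers it was 8.46 to 11.64, 9.16 to 11.45 and 11.76 to 13.60. Of these markers 2 were called lower in each clone group, as was 1 of the 9 trophectoderm markers, and 0 higher. Of all genes 5.58% and 2.43% were called lower in fusion and injection clones. The trophectoderm markers went both ways, with 3 of 9 above 0 in each clone comparison. Fgfr2 averaged 14.96 in fusion and 14.69 in injection clones, against 14.12 in female embryos. The larger shifts were downward. Elf5 averaged 10.74 and 10.05, against 13.70, Krt7 11.81 and 11.37, against 14.01, and Plac1 11.63 and 10.43, against 13.56. Of 7 epiblast markers 1 was called higher in injection clones and 0 in fusion clones. Foxa2, a primitive endoderm factor, was at the floor on all 8 clone arrays. Over 11 cumulus cell markers the level was 5.55 to 6.64 on all 14 arrays. Ptx3 and Tnfaip6 were at the floor on all 8 clone arrays, as they were in female embryos. Amhr2 averaged 10.38 in fusion and 10.80 in injection clones, against 9.03 in female embryos, and Nr5a2 14.81 and 14.48, against 13.85. Both were above background on every IVF array too, so their levels are not particular to embryos made from cumulus cells. Inha averaged 4.0 and 4.17, against 5.43, and Star 4.89 and 5.71, against 6.31. Of the cumulus cell markers tested, 5 of 8 lay above 0 in fusion clones and 4 of 7 in injection clones, and 0 were called. At an unadjusted p below 0.05 (limma), 2 and 1 were higher and 0 lower. The part of these lineage shifts in the differences below was not tested. In whole blastocysts, fewer cells of a type and less RNA per cell cannot be told apart.

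Promoter windows were examined to describe which members carry, close to an annotated start, letters that match the p53 consensus. RefSeq windows on GRCm38.p6, from 250 bases before to 50 bases after each annotated start, were held for 9 of the 10 members. They were searched on both strands for the p53 decamer consensus, of which a full response element holds a pair. At least 1 decamer lay in the windows of 5 of the 9 members (55.6%), Cdkn1a, Mdm2, Ccng1, Bax and Trp53, against 9.55% of all 27025 genes with a window. By window it was 5 of 15 (33.3%), against 8.36% of 32851. The members were chosen as p53 and cell death genes, so these shares are not a test. A Cdkn1a window held 2 decamers, as 0.359% of all windows held 2 or more. The Cdkn1a window at another annotated start, chr17:29093519-29093818, held 0. A match is a description of the letters and shows no binding. Letters outside the windows were not searched, so a window without a decamer does not show that a gene lacks one. The windows of Cdkn1a (chr17:29090729-29091028, plus strand), Mdm2 (chr10:117710709-117711008, minus strand) and Ccng1 (chr11:40755237-40755536, minus strand), the classical targets whose levels are given next, are shown 5′ to 3′ with the decamers in capitals.
Cdkn1a: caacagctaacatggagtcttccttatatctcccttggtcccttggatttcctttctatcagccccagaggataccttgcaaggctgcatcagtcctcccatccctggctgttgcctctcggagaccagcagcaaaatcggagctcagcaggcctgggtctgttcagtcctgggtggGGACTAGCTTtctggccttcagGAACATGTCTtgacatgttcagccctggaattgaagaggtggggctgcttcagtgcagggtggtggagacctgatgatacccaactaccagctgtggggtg
Mdm2: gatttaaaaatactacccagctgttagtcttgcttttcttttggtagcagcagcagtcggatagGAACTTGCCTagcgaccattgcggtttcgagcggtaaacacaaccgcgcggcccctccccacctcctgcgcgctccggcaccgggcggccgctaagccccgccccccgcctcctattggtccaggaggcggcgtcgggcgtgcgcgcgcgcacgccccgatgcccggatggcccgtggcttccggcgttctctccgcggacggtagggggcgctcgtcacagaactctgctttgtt
Ccng1: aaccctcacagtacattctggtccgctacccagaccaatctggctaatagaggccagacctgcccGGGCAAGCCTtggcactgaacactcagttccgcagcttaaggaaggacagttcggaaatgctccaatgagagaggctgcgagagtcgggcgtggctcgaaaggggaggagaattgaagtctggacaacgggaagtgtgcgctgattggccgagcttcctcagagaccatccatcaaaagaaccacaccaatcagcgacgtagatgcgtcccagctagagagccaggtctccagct

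The 10 genes did not move as one block. Read by the brightest probe of each gene, Trp53 and Bcl2l11 fell in fusion clones against female IVF embryos, and Bcl2l11 fell in injection clones (limma, Benjamini-Hochberg adjusted p below 0.05 over all probes tested). Among fusion clones the count was 0 members higher and 2 lower, against 3.47% of 22162 genes called higher and 5.58% called lower. Among injection clones it was 0 higher and 1 lower, against 1.34% and 2.43% of 22406 genes. At an unadjusted p below 0.05, 1 member was higher and 2 were lower in fusion clones, against 9.51% and 17.6% of genes, and 2 were higher and 3 lower in injection clones, against 8.76% and 14.8%. At the methods' threshold, an unadjusted p below 0.05 with a 2-fold difference, Ccng1 was higher and Bcl2l11 lower in fusion clones, where 6.77% of genes were higher and 8.93% lower. At that threshold Cdkn1a and Ccng1 were higher and Bcl2l11 was lower in injection clones, where 5.8% and 7.53% of genes were. The median difference over the 10 members was -0.08 in the fusion group and 0.27 in the injection group, while it was -0.17 and -0.13 over all genes. Both clone comparisons share the 3 female embryos. Across all 8 clones and all 6 IVF embryos, male and female, 1 member was higher without overlap (Ccng1) and 2 were lower (Trp53 and Bcl2l11), against 2.21% and 4.7% of 23895 genes.

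**Figure D1:**
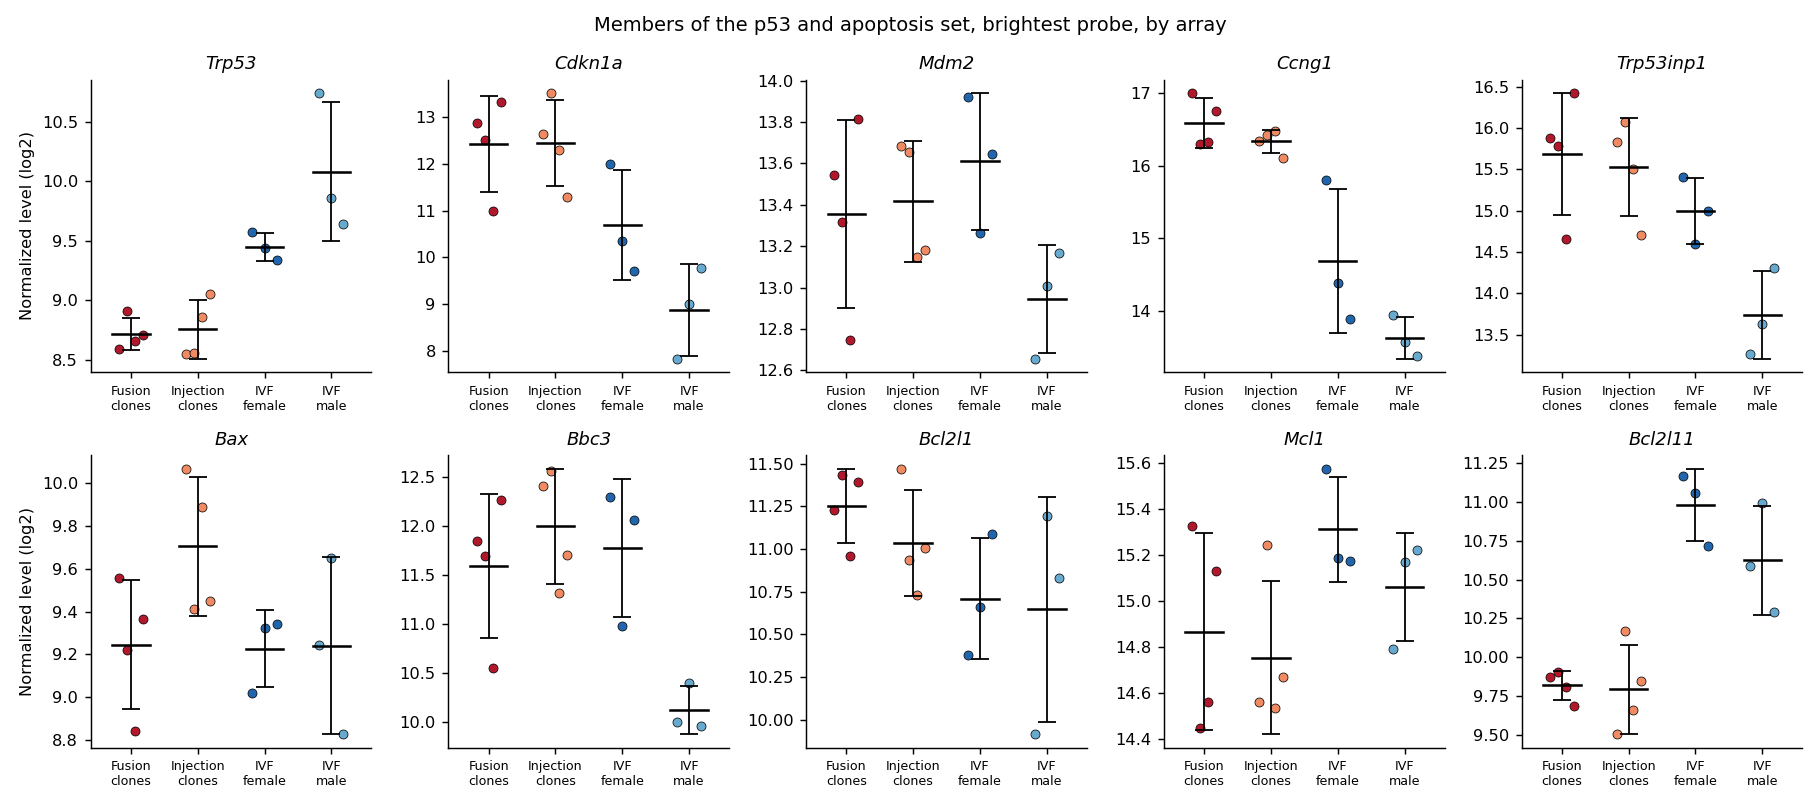
Log2 normalized signal of the brightest probe of each of the 10 members, 1 point per array, for fusion clones, injection clones, male IVF and female IVF embryos, with the mean ± SD of each group. Ccng1 lies higher in all 8 clones than in all 6 IVF embryos, and Trp53 and Bcl2l11 lie lower.

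Trp53 itself was lower in clones by its brightest probe. The level was 8.60, 8.91, 8.66 and 8.71 in the 4 fusion clones, 8.55, 8.56, 8.86 and 9.06 in the 4 injection clones, 10.74, 9.86 and 9.64 in the male IVF embryos and 9.57, 9.44 and 9.34 in the female ones. All 8 clones lay below all 6 IVF embryos, and the clone groups overlapped each other. The difference from female embryos was -0.73 (SE 0.158, 1.66-fold lower, adjusted p = 0.0397, limma) in fusion clones and -0.69 (SE 0.176, adjusted p = 0.0839) in injection clones. The fusion call was lost without fusion clone 1, 3 or 4 in turn (adjusted p = 0.0674, 0.0722 and 0.0616). A second Trp53 probe, printed in 10 spots and placed 9.18 kb downstream in the array's own coordinates, gave another picture. Its level ran from 5.92 to 8.01 in fusion clones, from 6.33 to 7.09 in injection clones and from 6.53 to 7.88 in IVF embryos, so the groups overlapped. Its differences from female embryos were -0.01 (adjusted p = 0.995) and -0.32 (adjusted p = 0.485). Trp53 mRNA was therefore lower by 1 of its 2 probes.

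Cdkn1a, which encodes the cyclin-dependent kinase inhibitor p21, had a single probe in 10 spots. Its level was 12.87, 12.499, 10.98 and 13.32 in fusion clones and 12.64, 13.50, 12.30 and 11.30 in injection clones. It was 7.84, 9.02 and 9.78 in male IVF embryos and 11.98, 10.35 and 9.72 in female IVF embryos. Of the 8 clones 6 lay above every IVF embryo, while fusion clone 3 and injection clone 4 lay below female embryo 1, the highest of the IVF embryos. The difference from female embryos was 1.73 (SE 0.733, 3.32-fold, adjusted p = 0.190) in fusion clones and 1.75 (SE 0.709, 3.36-fold, adjusted p = 0.210) in injection clones, and neither passed the test. Without female embryo 1 they were 2.38 (adjusted p = 0.112) and 2.40 (adjusted p = 0.125). Against all 6 IVF embryos, which leaves out sex matching, the differences were 2.63 (adjusted p = 0.0516) and 2.65 (adjusted p = 0.0600). The median SD between the 10 spots on an array was 0.0538. The SD between arrays was 1.01 in fusion clones, larger than that of 94.2% of 17478 probes above background on every array, and 0.911 in injection clones, larger than that of 90.9%.

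Ccng1, a p53 target that encodes cyclin G1, was higher in clones by both of its probes. The brightest read 16.999, 16.30, 16.32 and 16.76 in fusion clones, 16.33, 16.42, 16.47 and 16.11 in injection clones, 13.95, 13.57 and 13.38 in male IVF embryos and 15.80, 14.38 and 13.89 in female ones. No clone overlapped an IVF embryo, and female embryo 1 came closest. The difference from female embryos was 1.90 (SE 0.475, 3.74-fold, adjusted p = 0.0555) in fusion clones and 1.64 (SE 0.451, 3.12-fold, adjusted p = 0.0977) in injection clones. Without female embryo 1 the adjusted p was 0.0183 and 0.0219. The second probe, 1.99 kb downstream, read 16.42, 15.41, 15.73 and 16.54 in fusion clones, 16.07, 16.58, 16.55 and 15.89 in injection clones, and 13.23 to 14.83 over the 6 IVF embryos. It showed no overlap either, and was 2.44-fold higher in fusion clones (1.29, SE 0.316, adjusted p = 0.0535) and 2.90-fold higher in injection clones (1.54, SE 0.217, adjusted p = 0.0290). The injection call was lost without any single sample except injection clone 4 (adjusted p = 0.0505 to 0.0732), and fusion clones passed without fusion clone 2 (adjusted p = 0.0485). By probe rather than by gene, 4.32% of 32458 probes were called higher and 5.17% lower in fusion clones, and 1.53% and 2.14% of 32840 in injection clones. Against all 6 IVF embryos, both Ccng1 probes passed in both clone groups (adjusted p = 0.0108 to 0.0187), where 4.54% of probes in fusion clones and 3.29% in injection clones were called higher.

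Mdm2, the feedback inhibitor of p53, differed between its 2 probes. The brightest read 12.75 to 13.81 in fusion clones, 13.15 to 13.68 in injection clones, 12.66 to 13.17 in male and 13.26 to 13.92 in female IVF embryos, with all groups overlapping at least 1 other, and its differences from female embryos were -0.26 (adjusted p = 0.599) and -0.19 (adjusted p = 0.630). The other probe, 3.45 kb upstream and in 10 spots, read 7.53, 7.01, 7.24 and 7.51 in fusion clones and 7.53, 7.21, 7.09 and 7.81 in injection clones. In IVF embryos it read 4.09, 5.10 and 4.23 (male) and 6.43, 5.25 and 5.80 (female), so that all 8 clones lay above all 6 IVF embryos. It was 2.82-fold higher than in female embryos in fusion clones (1.496, SE 0.310, adjusted p = 0.0358) and 3.0-fold higher in injection clones (1.58, SE 0.326, adjusted p = 0.0561). Of all probes, 2.25% lay higher in the 8 clones without overlap and 4.02% lower. The fusion call held without female embryo 1 and was lost without any of the other 6 samples (adjusted p = 0.0519 to 0.0884), while injection clones passed without female embryo 1 (adjusted p = 0.0486). With normexp background correction the differences shrank to 0.78 (adjusted p = 0.0417) and 0.87 (adjusted p = 0.0566), and against all 6 IVF embryos they were 2.17 and 2.26. Before normalization the IVF arrays held 6790 to 9981 gene spots with a negative processed signal and the clone arrays 0, which touches probes as dim as this one, and its part in the difference was not tested. The probes lie in different stretches of the same RefSeq transcript record by the array's annotation, and which of them tracks total Mdm2 mRNA was not tested.

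**Figure D2:**
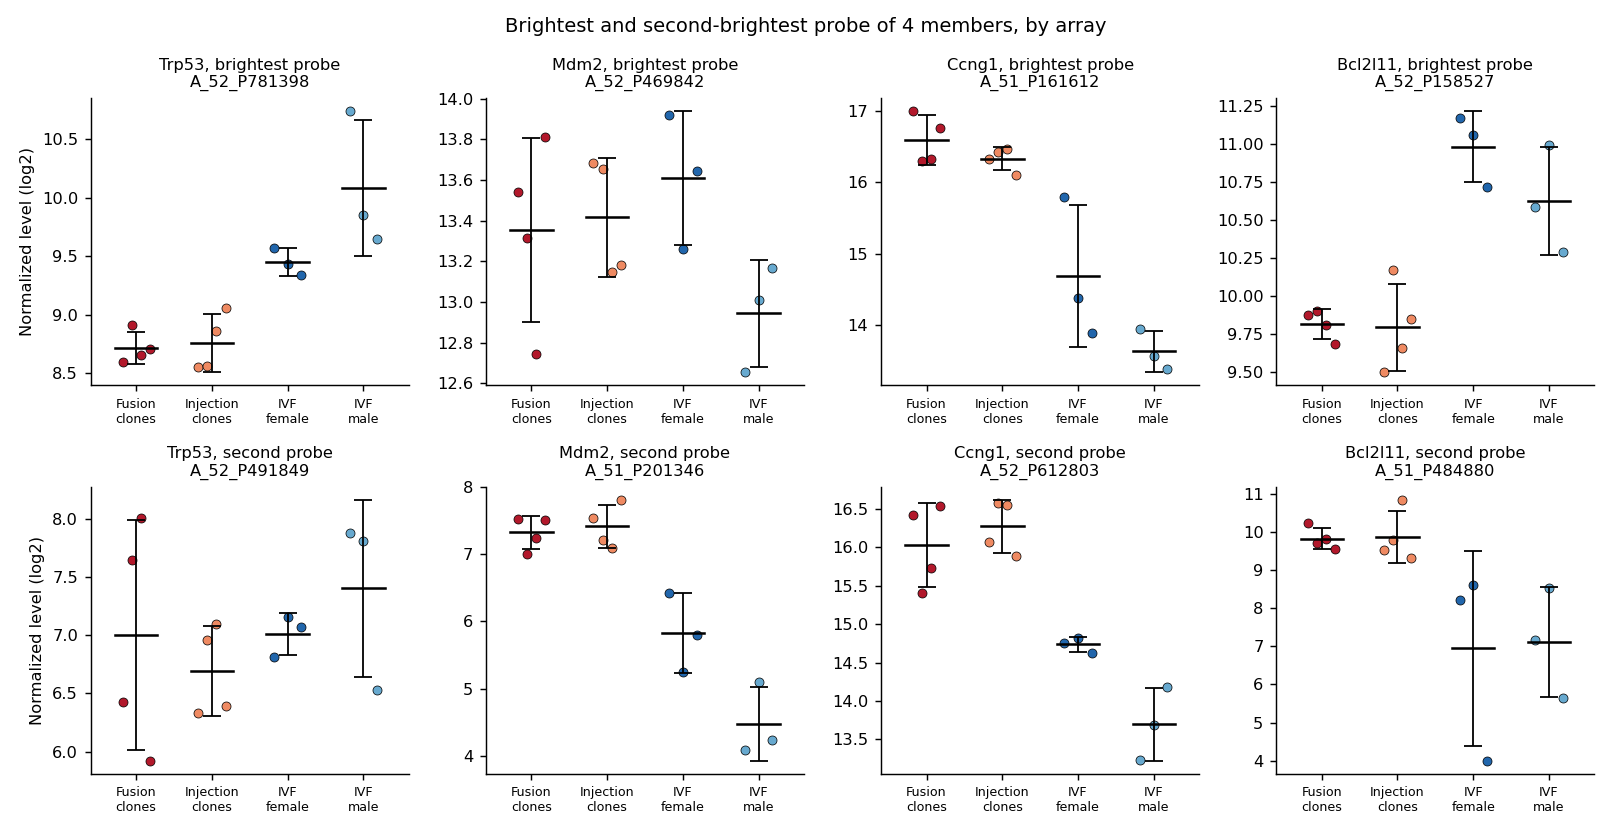
Log2 normalized signal on each array of the brightest and the second-brightest probe of 4 members with more than 1 measured probe, by group, with the mean ± SD. The 2 Ccng1 probes both separate the 8 clones from the 6 IVF embryos upwards, while for Mdm2, Trp53 and Bcl2l11 the probes of the same gene give different pictures.

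Trp53inp1, whose product promotes p53-dependent death and autophagy, read 15.88, 15.78, 14.66 and 16.42 in fusion clones, 15.83, 16.07, 15.51 and 14.71 in injection clones, 13.27, 13.63 and 14.31 in male and 15.40, 14.59 and 14.99 in female IVF embryos. The clones lay above the 3 male embryos and overlapped the female ones. The difference from female embryos was 0.69 (adjusted p = 0.373) and 0.53 (adjusted p = 0.457). Its dimmer probe, 2.99 kb upstream, read the floor on at least 1 array of fusion clones and of male embryos and did not pass either test.

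Of the death effectors, Bax and Bbc3 did not pass the test in any comparison. Bax read 9.55, 9.22, 8.84 and 9.37 in fusion clones, 10.07, 9.41, 9.89 and 9.45 in injection clones, 9.24, 9.65 and 8.82 in male and 9.02, 9.32 and 9.34 in female embryos. Injection clones lay above all 3 female embryos, fusion clones lay on both sides of them, and the differences were 0.02 for fusion clones (95% interval -0.51 to 0.55, adjusted p = 0.965) and 0.48 for injection clones (-0.05 to 1.01, adjusted p = 0.252). Bbc3 read 11.85, 11.69, 10.56 and 12.27 in fusion clones, 12.41, 12.56, 11.32 and 11.70 in injection clones, 9.99, 10.40 and 9.96 in male and 12.30, 10.97 and 12.06 in female embryos. Only the male embryos stood apart, below all other arrays, and the clone differences were -0.19 (-1.39 to 1.02) and 0.22 (-0.87 to 1.31).

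Bcl2l11, which encodes the BH3-only protein BIM, fell in both clone groups by its brightest probe. The level was 9.87, 9.90, 9.81 and 9.68 in fusion clones, 9.501, 10.17, 9.66 and 9.85 in injection clones, 10.59, 11.00 and 10.29 in male and 11.17, 11.06 and 10.72 in female IVF embryos. The 8 clones lay below all 6 IVF embryos. The difference from female embryos was -1.16 in fusion clones (SE 0.173, 2.24-fold lower, adjusted p = 0.0158) and -1.19 in injection clones (SE 0.212, 2.28-fold lower, adjusted p = 0.0448). The fusion call held without any single sample (adjusted p at most 0.0386), and the injection call was lost without any single one (adjusted p = 0.0642 to 0.107). A second probe, 4.12 kb upstream, whose 60 bases span 11096 bases of the genome, went the other way. It read 10.23, 9.71, 9.80 and 9.57 in fusion clones and 9.52, 9.80, 10.85 and 9.33 in injection clones, against 7.18, 8.53 and 5.65 in male and 8.23, 8.61 and 4.0 in female embryos. All 8 clones lay above all 6 IVF embryos on it, with 7.37-fold and 7.62-fold differences from female embryos that did not pass the test (adjusted p = 0.156 and 0.206). Female embryo 3 was at the floor, and without it the difference in fusion clones was 1.41 (adjusted p = 0.0410) and in injection clones 1.46 (adjusted p = 0.198), and with normexp background correction they were 1.93 and 2.06. The remaining Bcl2l11 probe was well above background on 0 of 3 female arrays and on 2 of 4 in each clone group. Against female embryos its mean was 2.09-fold higher in fusion clones (adjusted p = 0.256) and 2.88-fold in injection clones (adjusted p = 0.401). Injection clones 2 and 4 read 4.0, as all female embryos did, and male embryo 3 read 6.59. Neither difference passed the test, and this probe does not show a rise in clones. Bcl2l11 therefore has no direction that all its probes share.

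The survival genes did not pass the test by any probe. Bcl2l1 (BCL-XL) read 11.23, 11.43, 10.96 and 11.40 in fusion clones, 11.47, 10.94, 10.73 and 11.01 in injection clones, 9.91, 11.19 and 10.83 in male and 10.38, 10.66 and 11.09 in female embryos. The groups overlapped, and the differences from female embryos were 0.54 (95% interval -0.0086 to 1.097, adjusted p = 0.189) and 0.33 (-0.28 to 0.93, adjusted p = 0.485). Its other 2 probes lie over 48 kb upstream. One, A_52_P510877, read 4.0 in all fusion clones, 5.09, 4.0, 5.37 and 5.76 in injection clones, 5.94, 6.0001 and 6.04 in male and 4.0, 6.02 and 4.0 in female embryos, and neither passed a test. Mcl1 read 15.33, 14.45, 14.56 and 15.13 in fusion clones, 14.56, 15.25, 14.54 and 14.67 in injection clones, 14.79, 15.17 and 15.22 in male and 15.58, 15.19 and 15.17 in female embryos. Its differences were -0.45 (-1.11 to 0.22) and -0.56 (-1.12 to -0.0037), while its other probe, 1.31 kb upstream, gave 0.19 (adjusted p = 0.752) and 0.57 (adjusted p = 0.245).

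**Figure D3:**
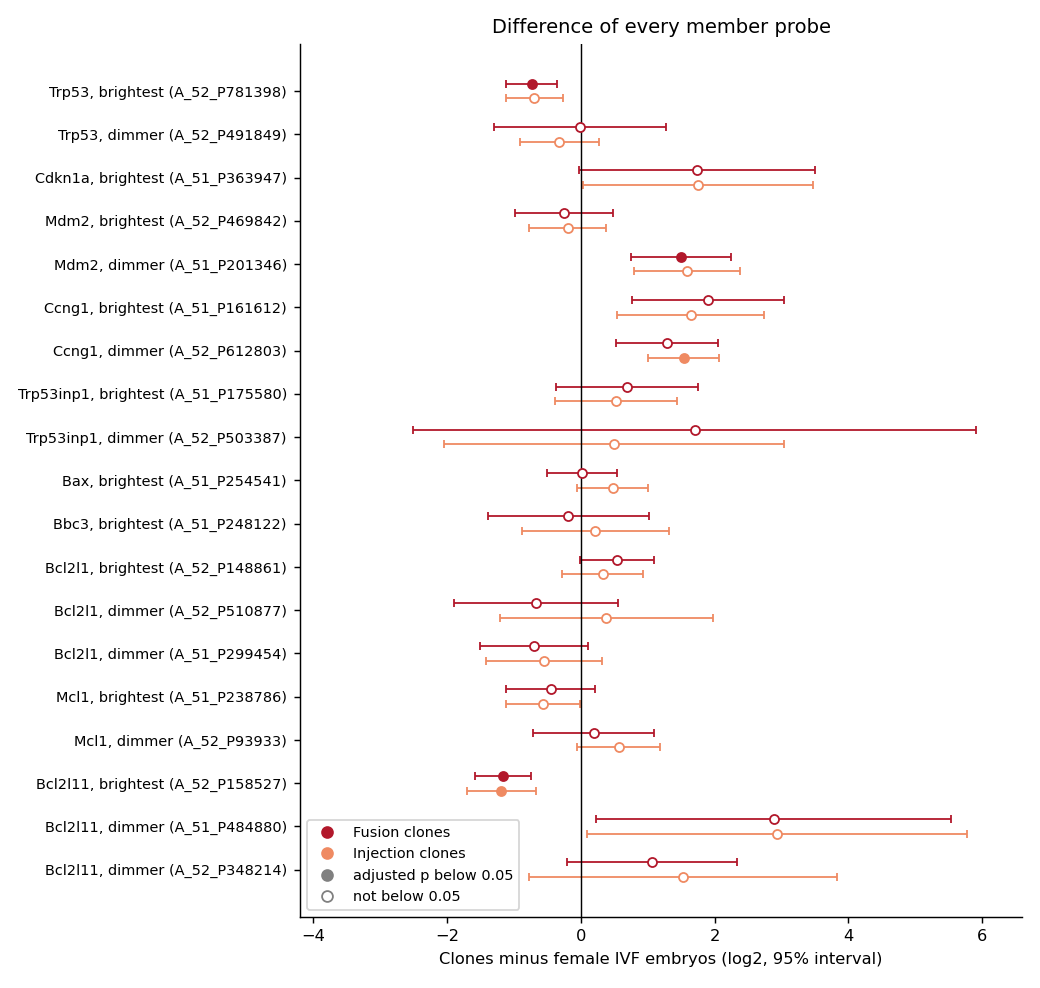
Log2 difference from female IVF embryos of every tested member probe in fusion clones and in injection clones, with its 95% interval from the limma fit, filled where the adjusted p was below 0.05. Filled points lie below 0 for Trp53 (fusion) and Bcl2l11 (both) and above 0 for the dimmer Mdm2 probe (fusion) and the dimmer Ccng1 probe (injection).

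The transfer method made no difference that passed the test. Between fusion and injection clones 0 of 10 members were called in either direction, as were 0.0% of 21986 genes, and none had an unadjusted p below 0.05 by its brightest probe, against 2.41% of genes higher and 3.59% lower. Among the dimmer probes, Bcl2l1 probe A_52_P510877 had one (-1.06, adjusted p = 0.747, limma), with all 4 fusion clones at the floor. At the methods' threshold 0 members passed, against 1.07% of genes higher and 1.09% lower in fusion clones. The difference of fusion from injection clones was -0.04 for Trp53 (95% interval -0.38 to 0.31), 0.26 for Ccng1 (-0.18 to 0.70) and 0.02 for Bcl2l11 (-0.35 to 0.39). For Bax it was -0.46 (-0.97 to 0.05) and for Bcl2l1 0.22 (-0.23 to 0.66). The interval was widest for Cdkn1a, -0.02 (-1.50 to 1.47), so that a difference of more than 2-fold in either direction lay within it, as it did within those of Trp53inp1 (0.16, -0.89 to 1.20, upwards only) and Bbc3 (-0.41, -1.44 to 0.63, downwards only). For Mdm2 it was -0.06 (-0.67 to 0.55) and for Mcl1 0.11 (-0.50 to 0.73).

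Male IVF embryos had lower mean levels of several of the same targets than female ones, and no member passed the test. Of the 10 members 0 were called in either direction, against 0.0228% of 21887 genes higher and 0.0411% lower in males. At an unadjusted p below 0.05, 0 were higher and 2 lower, against 3.47% and 4.19% of genes. These were Trp53inp1 (-1.26, adjusted p = 0.549) and Bbc3 (-1.66, adjusted p = 0.479), and both passed the methods' threshold, where 2.6% of genes were higher and 2.85% lower. The male minus female difference was -1.81 for Cdkn1a (adjusted p = 0.649, and -1.16 without female embryo 1), -1.06 and -1.04 for the Ccng1 probes (adjusted p = 0.659 and 0.545) and -1.35 for the dimmer Mdm2 probe (adjusted p = 0.572), and 0.63 for Trp53 (adjusted p = 0.674). By group mean the Cdkn1a order ran from injection clones and fusion clones, which overlapped, through female to male IVF embryos, which overlapped at 9.72 and 9.78. Each sex lay on its own slide, so sex and slide cannot be told apart here.

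Among the 8 clones and by brightest probes, Cdkn1a varied together with Trp53inp1, Mdm2 and Bbc3 and not detectably with Ccng1 or Bax. This pattern was looked at after the values had been seen. Fusion clone 3 and injection clone 4 had the lowest Cdkn1a and the lowest Trp53inp1 of the clones. Over the 8 clones the correlation of Cdkn1a with Trp53inp1 was r = 0.97 (exact permutation p = 0.000347, adjusted 0.00313 over 9 pairs) and rho = 0.98 (exact p = 0.000397, adjusted 0.00357). Without these 2 clones, the farthest from the median, r was 0.87 (n = 6), and it was 0.99 among fusion clones and 0.97 among injection clones. For Mdm2 r was 0.89 (exact permutation p = 0.00124, adjusted 0.00558) with rho 0.86 (exact p = 0.0107, adjusted 0.0321), 0.79 without the same 2 clones, and 0.99 and 0.77 within the 2 slides. The dimmer Mdm2 probe, the one that was higher in clones, was not tested for covariation. Injection clone 4, with a Cdkn1a level of 11.30, read 7.81 on it, the highest of the 8 clones. For Bbc3 r was 0.82 (exact permutation p = 0.0103, adjusted 0.0309) with rho 0.86 (adjusted 0.0321), 0.79 without the 2 clones, and 0.998 and 0.70 within the slides. Ccng1 (r = 0.58, adjusted p = 0.220 by exact permutation), Mcl1 (0.65, adjusted 0.209), Bax (0.36), Bcl2l1 (0.35), Bcl2l11 (0.18) and Trp53 (-0.49, adjusted 0.321) did not pass. Among the 6 IVF embryos the correlations with Cdkn1a were of like size, r = 0.91 for Trp53inp1, 0.90 for Mdm2, 0.96 for Mcl1, 0.77 for Ccng1 and 0.73 for Bbc3. None passed there after adjustment over 9 pairs (exact permutation, adjusted p = 0.0583 for Trp53inp1, Mdm2 and Mcl1, and at least 0.150 by rho, which was 0.83, 0.83 and 0.94). Without the 2 embryos farthest from the median, which leaves 4, r was 0.70, 0.39 and 0.41. Within the male and female slides it was 0.96 and 0.71 for Trp53inp1, 0.995 and 0.63 for Mdm2 and 0.96 and 0.97 for Mcl1, with 3 embryos each. Covariation with Cdkn1a is therefore not shown to be particular to clones.

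Deviations from group means over all 14 arrays were compared next, each gene by its brightest probe. Of 17478 probes, 0.0172% correlated with Cdkn1a more closely than Trp53inp1 did (r = 0.90) and 0.132% more closely than Mdm2 (r = 0.84). The share was 0.795% for the survival gene Mcl1 (r = 0.72), 1.72% for Bbc3 (r = 0.65) and 4.43% for Ccng1 (r = 0.55). The p53 target Bax did not follow, at r = 0.04 with 40.4% of probes closer, and the remaining members lay at 0.21 (Bcl2l1), 0.19 (Bcl2l11) and -0.45 (Trp53). Of 26 other p53 targets 21 had a positive correlation and their median r was 0.31, against -0.06 over all probes. Named after their values were seen, Aen (r = 0.82), a p53-induced nuclease, was among the closest, with Eda2r and Phlda3 at 0.72 each. Xpc (-0.57), Ddb2 (-0.34), Gdf15 (-0.30), Rrm2b (-0.27) and Sfn (-0.10) had a negative correlation. Over all 14 levels, the 3 probes among 10771 most alike to Cdkn1a were those of Trp53inp1 (r = 0.96), Snx4 (0.96) and Fat1 (0.94), and to Trp53 those of Erbb4 (0.99), Defa3 (0.98) and Car7 (0.98), as descriptions over arrays that share slides by group.

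**Figure D4:**
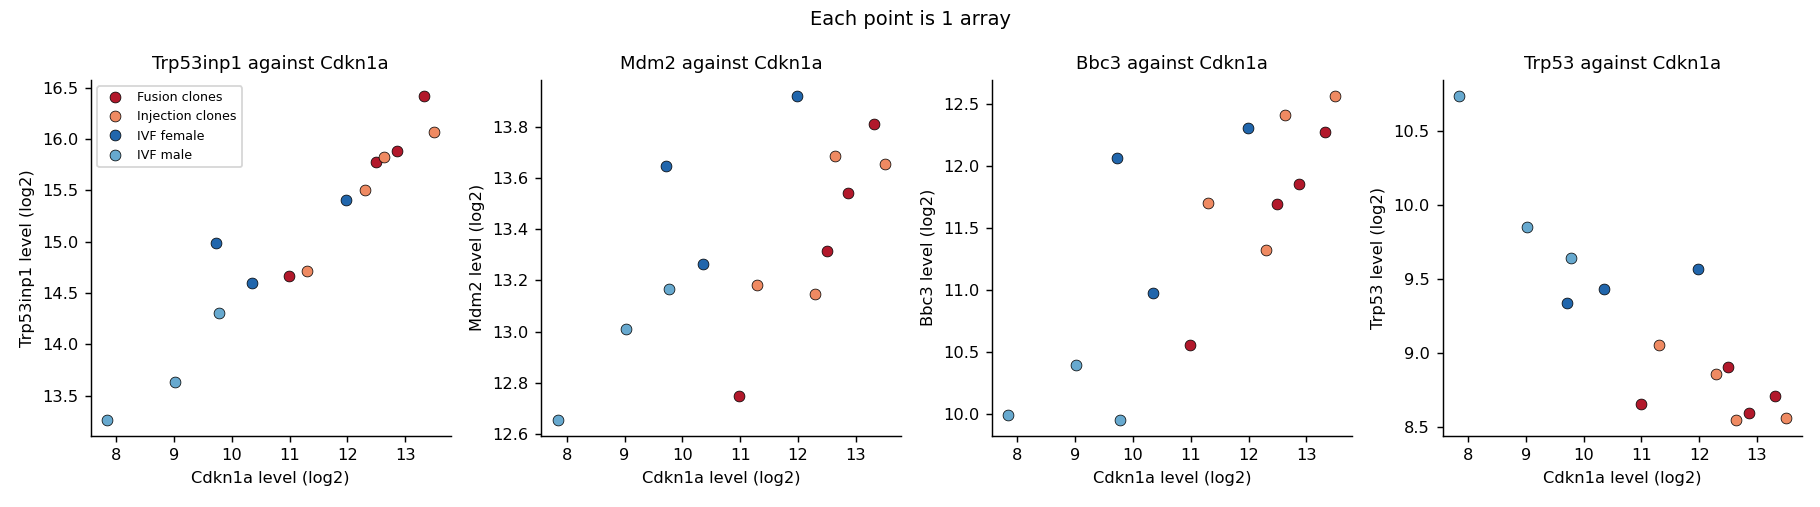
Log2 level of the brightest probe of Trp53inp1, Mdm2, Bbc3 and Trp53 against that of Cdkn1a, 1 point per array, coloured by group, on linear axes. Trp53inp1 and Mdm2 rise along Cdkn1a among the 8 clones, with fusion clone 3 and injection clone 4 lowest on the Cdkn1a axis.

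Other genes of the pathways were read from 4 lists, again by the brightest probe of each gene. Of 30 other p53 targets, 0 of the 29 tested in fusion clones and 0 of the 30 tested in injection clones were called (limma, adjusted p below 0.05), and at an unadjusted p below 0.05 there were 5 higher and 3 lower in fusion clones and 2 higher and 2 lower in injection clones, where the shares of all genes were the 9.51%, 17.6%, 8.76% and 14.8% given above. The difference was above 0 for 19 of 29 and 23 of 30, against 8959 of 22162 and 9291 of 22406 over all genes, and its median was 0.27 and 0.32, against -0.17 and -0.13. Of 24 dimmer probes of this list, 2 were called higher and 1 lower in fusion clones, against 4.32% and 5.17% of all probes. In injection clones 2 were called higher and 0 lower, against 1.53% and 2.14% of all probes. The genes they read were named after their values were seen. Btg2, an antiproliferative gene, was 3.95-fold higher in fusion clones (adjusted p = 0.0443). In injection clones it was called by 2 dimmer probes (4.51-fold and 3.26-fold). Apaf1, the scaffold of the apoptosome, was 6.03-fold higher in fusion clones (adjusted p = 0.0380), and Pidd1 was 1.93-fold lower (adjusted p = 0.0386). At the methods' threshold 4 were higher and 1 lower in fusion clones, against 6.77% and 8.93% of all genes. The 4, named after their values were seen, were Zmat3 (2.45-fold, adjusted p = 0.122), Polk (2.42-fold, 0.0579), Ephx1 (3.16-fold, 0.172) and Dcxr (2.42-fold, 0.0897). In injection clones 2 were higher and 0 lower, against 5.8% and 7.53% of all genes. These were Zmat3 (2.73-fold, adjusted p = 0.147) and Ephx1 (3.38-fold, adjusted p = 0.0897). In male against female embryos the list ran lower, with 5 of 29 above 0 and a median of -0.45, against -0.04 over all genes.

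Of 14 tested regulators of p53, 1 rose and 2 fell in fusion clones, where 3.47% of all genes were called higher and 5.58% lower. The median was -0.49, against -0.17 over all genes, and 4 of 14 were above 0, against 8959 of 22162 genes. Chek2, a checkpoint kinase that phosphorylates p53, was 9.47 in female embryos and rose to 11.25 (3.43-fold, adjusted p = 0.0429), while its dimmer probe differed by 0.31 (adjusted p = 0.701). Trp73, a p53 relative, fell 2.09-fold (adjusted p = 0.0192), and Trp53bp1, a DNA damage adaptor named after its value was seen, fell by 0.63 on the log2 scale. In injection clones 0 of 14 were called, against 1.34% of genes higher and 2.43% lower, and the median was -0.36, against -0.13. At an unadjusted p below 0.05, 1 was higher and 4 lower, against 8.76% and 14.8% of genes. Of 18 dimmer probes, 2 were called lower in fusion clones and 1 in injection clones (5.17% and 2.14% of all probes), and 0 higher. The 2 in fusion clones, named after their values were seen, read Rfwd2 (at least 6.49-fold lower, adjusted p = 0.00547, limma) and Ppp1r13l (1.8-fold lower, adjusted p = 0.0369). The brightest Rfwd2 probe differed by 0.13 (adjusted p = 0.667).

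In the BCL2 family, 13 further genes were tested in fusion clones. By brightest probe 2 fell and 0 rose, where 5.58% of all genes were called lower and 3.47% higher. The guard Bcl2 was 2.74-fold lower (adjusted p = 0.0347), with 2 of 4 fusion arrays above background, and the effector Bak1, named after its value was seen, fell by 0.67 (adjusted p = 0.0492). The dimmer Bak1 probe went the other way, 3.12-fold higher in fusion clones (adjusted p = 0.0234) and 3.42-fold higher in injection clones (adjusted p = 0.0324), so that the 2 Bak1 probes share no direction. Of 12 tested in injection clones 0 were called. At an unadjusted p below 0.05, 1 was higher and 3 lower, against 8.76% and 14.8% of all genes. Among 24 caspases, apoptosome genes and inhibitors, calls were 1 higher and 0 lower in fusion clones and 1 and 1 in injection clones. The shares of all genes were 3.47% and 5.58% in fusion clones and 1.34% and 2.43% in injection clones. Tradd, an adaptor of TNF receptor signalling, rose in both, 2.63-fold in fusion clones (adjusted p = 0.0164) and 2.38-fold in injection clones (adjusted p = 0.0327). Casp2, a caspase activated through the p53-induced PIDDosome, fell 2.02-fold in injection clones (adjusted p = 0.0253). The medians of this list were -0.07 and -0.09, against -0.17 and -0.13 over all genes. Of its 20 dimmer probes, 2 were called higher in fusion clones and 1 lower in injection clones, against 4.32% and 2.14% of all probes. By brightest probe, none of the 4 lists had more genes called than 2 in 1 direction in a clone comparison.

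**Figure D5:**
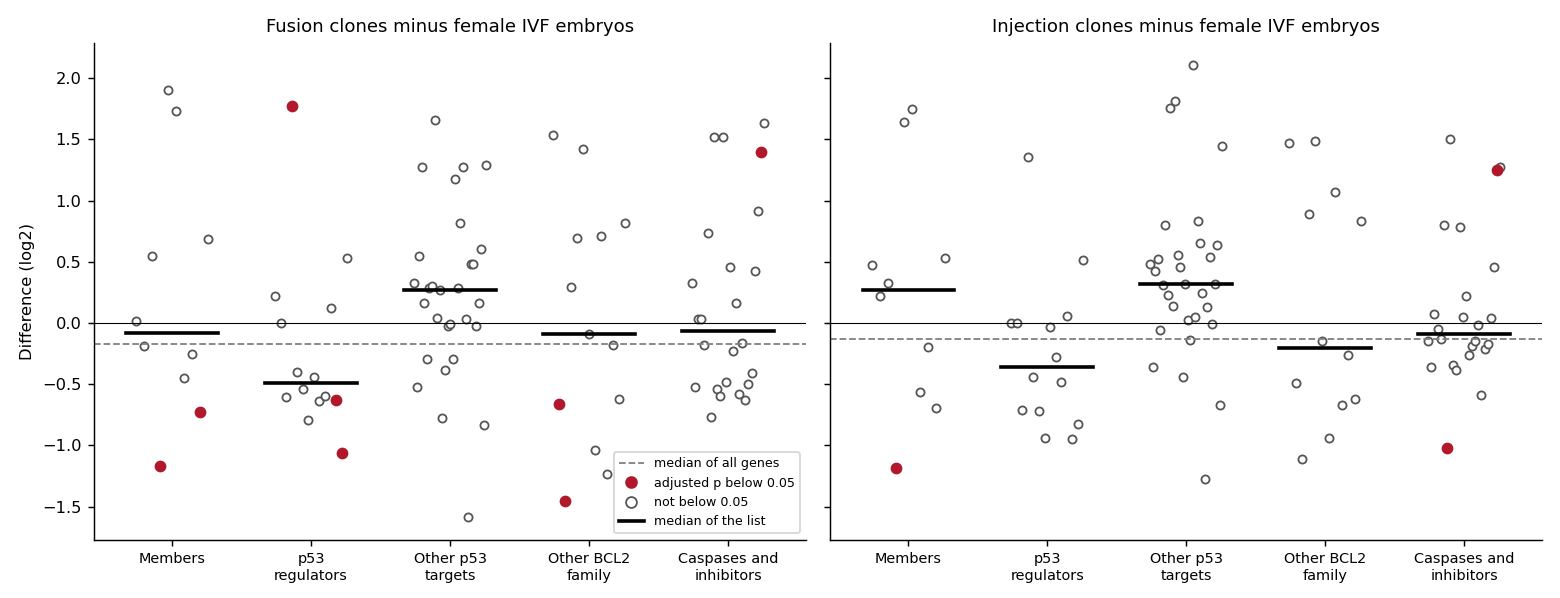
Log2 difference from female IVF embryos of each tested gene of the members and of the 4 other lists, by brightest probe, for fusion and for injection clones. Red filled points were called at an adjusted p below 0.05, the bar is the median of a list, and the dashed line is the median of all genes, -0.17 and -0.13.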

How the data were processed

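RNA of 14 blastocyst samples was amplified linearly in 2 rounds, labelled with Cy3 and hybridised to Agilent 1-colour mouse arrays. Per the labels, images were read with Agilent Feature Extraction 10.5.1. The deposited scanner files hold intensities: the processed signal was background-subtracted by the authors' software. The headers give version 10.5.1.1 for clones and 9.5.3.1 for IVF embryos. A second deposited file, of log2 values by the authors, served as an alternative.

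Intensities of non-control spots, without the 101 to 338 outlier spots per array, were quantile-normalized over the 14 arrays, floored at 16, taken to log2 and averaged per probe. The quantile step reads the methods' quintile normalization as such. Probes with the well-above-background flag on any array of a pair of groups were tested with limma 3.58.1 (R 4.3.3) in 4 pairwise fits and Benjamini-Hochberg adjustment over all probes tested (32011 to 32840). The fits were tested on simulated data. A gene was read by its probe of highest mean. The number of arrays limits the precision. Gene names are those of the files, updated through RefSeq for 79.5% of probes. Of the other lists, up to 4 genes per direction were named that passed an adjusted p of 0.05 with a 2-fold difference. The members and lists were chosen with earlier results of these data known.

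Male and female embryos of the same number deviated together (r = 0.108, 0.128 and 0.109, from the data), which met the rule for pairing. With the replicate number as a block 0 of the 19 probes called between the sexes passed (limma). Clone comparisons did not meet the rule.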

Additional observations from a re-analysis of the deposited data

Results flagged for a closer look

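On a Bcl2l1 probe near the floor, A_51_P299454, injection clone 4 read 4.52 on the log2 scale, while the other 3 injection clones read 4.0 to 4.07. The sample stood apart from the others of its group by 0.857 of the group's whole range. Of 36 groups of 4 values looked at, this was the 1 that stood out, where chance gives 5%, or 1.8. The probe lies 49.1 kb upstream of the brightest Bcl2l1 probe in the array's coordinates and carries no result given above.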

How the results depend on the processing

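Of 58 member results followed under every alternative, 26 kept direction and side of the threshold throughout. Bcl2l11 stayed below the threshold of 0.05 in fusion clones in 17 of 19 alternatives (adjusted p = 0.00582 to 0.243) and in injection clones in 7 of 19. Trp53 did so in 9 of 19 in fusion clones and 0 of 19 in injection clones, Ccng1 was called in 7 and 4 of 19, and Cdkn1a in 0 of 19 in both (lowest adjusted p 0.0516 and 0.0600). The causes were not tested. Arrays give no counts, and probes near the floor of 4.0 have only a bound.

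With the replicate number as a block, fusion clones had 0 members lower instead of 2, 2 higher at the methods' threshold instead of 1, 0 other pathway genes higher instead of 2 and 0 lower instead of 4, a Bax difference of -0.0212 and a difference of 0.35 for the dimmer Trp53 probe A_52_P491849. Injection clones had 0 members lower instead of 1, and 0 other genes higher and 0 lower instead of 1 each. Over all probes the calls went from 3079 to 0 in fusion clones and from 1205 to 0 in injection clones, and the numbers pair no clone with an embryo. Every call named for these comparisons was therefore lost under the block. With the mean of probes in place of the brightest, fusion clones had 1 member higher, 0 lower, 0 lower at the methods' threshold, 1 other gene higher and 2 lower, and differences of -0.27 (Bcl2l1), 0.93 (Bcl2l11) and 0.62 (Mdm2). Injection clones had 1 higher, 0 lower, 0 lower at the methods' threshold, and differences of 1.09 (Bcl2l11), 0.0042 (Mcl1) and 0.70 (Mdm2). Between clone groups it gave -0.33 (Bcl2l1), -0.16 (Bcl2l11), -0.13 (Mcl1) and 0.13 (Trp53), and between the sexes 0.25 (Bcl2l1) and 0.29 (Bcl2l11). Against all 6 IVF embryos, fusion clones had 1 member higher, 3 higher at the methods' threshold, 8 other genes higher, and differences of 0.64 (Bbc3) and 0.0777 (Mdm2). Injection clones had 1 higher, 2 lower at the methods' threshold, 5 other genes higher and 2 lower, and differences of 0.14 (Mdm2) and -0.28 (Bcl2l1 probe A_52_P510877). With all 4 groups in 1 fit, fusion clones had 1 higher, 1 lower, 2 higher at the methods' threshold and 6 other genes higher. Injection clones had 1 higher and 4 other genes higher and 3 lower, and males had 4 lower at the methods' threshold and 1 other gene higher and 1 lower. With a variance trend, fusion clones had 1 higher, 1 lower, 2 higher at the methods' threshold and 4 other genes higher. Scaling to the 75th percentile gave 1 lower and 1 other gene higher in fusion clones, 0.26 for Trp53 probe A_52_P491849 and 0.0251 for Trp53 between clone groups, and moved the median of all probes in fusion clones from -0.12 to -0.06. The deposited log2 values gave 1 lower, 0 other genes lower, 0.29 for Trp53 probe A_52_P491849 and 0.0302 for Trp53 between clone groups, and in injection clones 0 lower and 0 other genes lower. Normexp background gave 1 higher, 2 higher at the methods' threshold, 1 other gene lower, 0.06 for Trp53 probe A_52_P491849 and -0.0547 for Bcl2l11 between clone groups. The strict filter gave 1 higher and 2 higher at the methods' threshold in fusion clones and 2 other genes lower in injection clones. A floor of 1 gave 1 lower, 1 other gene higher and 1 lower in fusion clones, and 0 lower, 0 other genes higher and 0 lower in injection clones. A floor of 32 gave, in injection clones, 1 higher at the methods' threshold, 2 other genes lower and -0.0333 for Bcl2l1 probe A_52_P510877. No filter gave 1 other gene higher in fusion clones, and 0 lower and 1 higher at the methods' threshold in injection clones.

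Leaving out 1 sample at a time, fusion clones had 0 to 1 members higher, 1 to 2 lower, 1 to 3 higher at the methods' threshold, and 1 to 3 other genes higher and 1 to 5 lower. Injection clones had 0 to 1 higher, 0 to 0 lower, 1 to 2 higher at the methods' threshold, and 0 to 2 other genes higher and 0 to 2 lower. Males had 1 to 4 lower at the methods' threshold. Differences near 0 turned: in fusion clones Bax -0.0857 to 0.15, Bbc3 -0.59 to 0.16, Mcl1 probe A_52_P93933 -0.0018 to 0.48 and Trp53 probe A_52_P491849 -0.35 to 0.35; in injection clones Bbc3 -0.18 to 0.48 and Trp53inp1 probe A_52_P503387 -0.18 to 1.64. Between clone groups Bcl2l11 ran from -0.0745 to 0.15, Cdkn1a -0.40 to 0.46, Mcl1 -0.0394 to 0.28, Mdm2 -0.21 to 0.14, Trp53 -0.11 to 0.0616 and Trp53inp1 -0.12 to 0.50, and between the sexes Bax -0.19 to 0.22 and Bcl2l1 -0.34 to 0.30.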
